A study of Mus musculus with 12 samples.

Results

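Among the 55450 genes of the count table, 5 autosomal genes were followed here: Lrmda, Eps8l1, Timp3, Gm16867 and Gm27177. They were picked by symbol as genes with large shifts along the Id1 genotype label, judged from their own levels in Id1KO against WT and in dKO against Tet2KO. Differences of the 5 genes in those contrasts are therefore given as a description, without a test. The libraries were made from total RNA of lineage-negative, Kit-positive donor cells (Lin- ckit+) taken by sorting from marrow of mice given competitive transplants. The 4 genotype labels were WT, Tet2 KO (Tet2KO below), Id1 KO (Id1KO) and Tet2 KO + Id1KO (dKO), with 3 libraries each. The titles give all libraries of a genotype the same sample number, with suffixes of unstated meaning, so they may come from repeated preparation of 1 pool of cells, and p-values measure only the spread between them. The age of the mice, the deleted exons, any Cre driver and the number of pooled animals are not given in the sources used here.

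By the same levels that chose them, 4 of the 5 genes shifted with the Id1 label in both contrasts. This restates the choice and is no support for it. Lrmda, Gm16867 and Gm27177 were low, and Eps8l1 was high, in both the Id1KO and the dKO libraries. Timp3 was high in the Id1KO libraries, but its dKO libraries overlapped its Tet2KO libraries, so its level did not follow the Id1 label as such. All 5 genes passed the filter on low counts that left 14346 genes for testing, Gm16867 and Gm27177 only through their WT and Tet2KO libraries, since every Id1KO and dKO library had 0 counts for both.

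Id1 encodes a helix-loop-helix protein without a DNA-binding region of its own. It pairs with E proteins and keeps them from their E-box sites, written CANNTG, and is best known for holding progenitor cells from differentiating. Tet2 encodes a dioxygenase that oxidises methylated cytosine in DNA, and its loss in blood stem cells leads to clonal expansion. Lrmda encodes a leucine-rich repeat protein needed for melanocyte differentiation, and its loss underlies a form of oculocutaneous albinism. Eps8l1 encodes a relative of Eps8, the adaptor that couples growth factor receptors to Rac and to the actin skeleton. Timp3 encodes the matrix-bound inhibitor of metalloproteinases, which also blocks the sheddase Adam17. Gm16867 and Gm27177 are gene models of a duplicated stretch of chromosome 14.

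Levels are in CPM, estimated counts scaled to library size. Libraries held 15706407 to 19959183 estimated counts each. The transcript named by each knockout was not lower in the libraries labelled as lacking it. Id1 stood at 1.47 ± 0.268 CPM (SD, n = 3) in WT and at 3.96 ± 0.342 in the libraries labelled Id1KO, 3.86 ± 0.421 in Tet2KO and 3.93 ± 0.501 in dKO. Tet2 means were 99.3 CPM (WT), 130 (libraries labelled Tet2KO), 92 (Id1KO) and 118 (dKO). Without the deleted exons, these whole-gene levels are no check of the deletions, and Tet2KO, Id1KO and dKO below mean libraries so labelled. In sorted bulk RNA, fewer cells of a type and less RNA per cell cannot be told apart.

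Markers of the sorted and other blood cells also moved with the labels. All 6 markers of the sorted progenitors were present, with Kit at 338 CPM in WT and Mpo the most abundant. Kit, Cd34, Mpo and Flt3 were lower in both Id1 contrasts, Cd34 by log2 -0.28 and -0.32 (edgeR adjusted p = 1.1e-07 and 1.18e-08). Of the 6 markers, 1 rose in Id1KO against WT and 0 rose in dKO against Tet2KO. The 6 summed to 11600 CPM for WT, 12800 to 13000 for Tet2KO, 9690 to 10400 for Id1KO and 9600 to 10400 for dKO. Of 8 erythroid markers 2, Tfrc and Car1, rose in Id1KO against WT and 8 in dKO against Tet2KO; they summed to 1370 to 1430 CPM for WT, 840 to 852 for Tet2KO, 1560 to 1600 for Id1KO and 1370 to 1390 for dKO. Of 7 monocyte and macrophage markers 4 fell in each contrast, Csf1r, Ly6c2 and Adgre1 in both, with sums of 1170 to 1220, 1480 to 1520, 1050 to 1070 and 1350 to 1380 CPM in that order. Of 6 tested neutrophil markers 1, Elane, fell in the first contrast, and 2 rose and 2 fell in the second, Elane again among those lower. Of 6 mast cell and basophil markers 1 rose in the first and 4 fell in the second. In the second contrast 2 of 2 tested epithelial, 1 of 4 B cell and 1 of 2 T and NK cell markers fell. Endothelial markers summed to 57.7 to 63.3 CPM for WT, 65.3 to 70.7 for Tet2KO, 54.3 to 58.3 for Id1KO and 66.2 to 68.8 for dKO. Of all genes, 7.26% rose and 7.77% fell in Id1KO against WT, and 13.1% rose and 13.4% fell in dKO against Tet2KO. Krt5 and Krt14 (epithelial) and Col3a1 and Dcn (stromal) had 0 counts. The part of these cell types in the results below was not tested.

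The promoters of Lrmda, Eps8l1 and Timp3 are shown because the study removes a regulator of E-box binding and at least 99.3% of the 31-base words in the transcripts of each of these 3 genes occur in no other gene. Each window runs over 300 bases around a RefSeq start on GRCm38.p6, is printed on the plus strand of the gene, and has every match to CANNTG in capitals. The motif reads as CANNTG on both strands.
Lrmda, chr14:22019462-22019761, plus strand: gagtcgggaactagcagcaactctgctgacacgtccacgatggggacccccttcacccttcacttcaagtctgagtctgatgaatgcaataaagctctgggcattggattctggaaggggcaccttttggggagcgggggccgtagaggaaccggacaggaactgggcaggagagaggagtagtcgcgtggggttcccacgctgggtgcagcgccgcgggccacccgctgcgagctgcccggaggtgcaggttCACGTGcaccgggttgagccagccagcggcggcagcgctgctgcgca
Eps8l1, first start, chr7:4460447-4460746, plus strand: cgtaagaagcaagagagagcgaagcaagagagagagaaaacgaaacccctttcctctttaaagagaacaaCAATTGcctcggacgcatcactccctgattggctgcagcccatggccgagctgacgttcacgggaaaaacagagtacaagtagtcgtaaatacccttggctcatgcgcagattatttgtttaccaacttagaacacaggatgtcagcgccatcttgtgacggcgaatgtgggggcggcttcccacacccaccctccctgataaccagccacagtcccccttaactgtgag
Eps8l1, second start, chr7:4464485-4464784, plus strand: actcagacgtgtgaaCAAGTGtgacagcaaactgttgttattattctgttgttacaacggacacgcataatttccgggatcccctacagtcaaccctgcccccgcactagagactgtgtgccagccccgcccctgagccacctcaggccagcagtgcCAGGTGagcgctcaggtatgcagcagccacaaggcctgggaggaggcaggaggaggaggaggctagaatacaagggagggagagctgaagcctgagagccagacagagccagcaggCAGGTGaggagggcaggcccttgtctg
Timp3, chr10:86300162-86300461, plus strand: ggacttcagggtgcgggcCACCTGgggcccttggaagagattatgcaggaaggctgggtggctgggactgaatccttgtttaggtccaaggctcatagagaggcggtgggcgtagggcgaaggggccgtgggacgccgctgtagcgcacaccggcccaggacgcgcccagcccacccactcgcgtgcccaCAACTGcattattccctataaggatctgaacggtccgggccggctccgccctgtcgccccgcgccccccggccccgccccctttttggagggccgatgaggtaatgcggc
The Lrmda window held 1 match, the palindrome CACGTG, which 7.15% of all windows contain. The first Eps8l1 window held 1 match and the second 3, among them CAGGTG at 2 places. One more Eps8l1 window, chr7:4464599-4464898, overlaps the second and held 2, the same CAGGTG sites. Timp3 held 2. Of 32817 RefSeq windows of the same length, 72.3% held at least 1 match, 39.7% at least 2 and 17.6% at least 3. Of the 5 genes, 4 matched the promoter table, with 7 windows in all. The 2 windows of Gm16867 held 1 and 2 matches.

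Gm16867 and Gm27177 are shown by an exon because their sequences decide what their counts can mean. The exon below is 102 bases long, is wholly coding in a Gm16867 transcript (GENCODE M21, GRCm38), and appears in both gene models, with the minus strand printed and no letters in capitals since there were 0 mismatches to mark.
Gm16867, chr14:69421898-69421999, minus strand: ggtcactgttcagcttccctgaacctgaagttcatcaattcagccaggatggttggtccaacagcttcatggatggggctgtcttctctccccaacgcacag
Gm27177, chr14:69640173-69640274, minus strand: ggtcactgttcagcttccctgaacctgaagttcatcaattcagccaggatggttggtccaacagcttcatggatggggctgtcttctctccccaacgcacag
A second coding exon of Gm16867, 82 bases long, was identical to an exon of the neighbouring gene Slc25a37, which encodes the mitochondrial iron importer mitoferrin.
Gm16867, chr14:69490462-69490543, minus strand: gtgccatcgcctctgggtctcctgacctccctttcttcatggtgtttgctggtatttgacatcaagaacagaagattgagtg
Slc25a37, chr14:69272212-69272293, minus strand: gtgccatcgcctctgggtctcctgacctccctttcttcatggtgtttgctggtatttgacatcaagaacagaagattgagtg
Of the 6872 distinct 31-base words in the transcripts of Gm27177, 100% also occur in those of Gm16867. Of the words of Gm16867, 88% occur in Gm27177, 5.67% in Slc25a37, and 6.33% in no other gene. The division of reads between Gm16867 and Gm27177 is therefore an estimate of the counting step, and their sum is the safer quantity.

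Lrmda (ENSMUSG00000063458.13) spans chr14:22019712-23056085 on the plus strand of GRCm38, with 12 merged exons and 2714 exonic bases. In WT its libraries had 6.07, 6.03 and 6.21 CPM, from 115 to 117 estimated counts. Tet2KO libraries had 5.82, 6.67 and 4.09 CPM. Those labelled Id1KO had 1.1, 1.14 and 0.77 CPM, from 14 to 22 counts, and those labelled dKO 1.08, 1.02 and 1.06 CPM. Every library with the Id1 label was below every library without it, and the dKO values fell within the Id1KO range. The lowest Tet2KO library widened that group to 5.53 ± 1.31 CPM (SD, n = 3), against 6.1 ± 0.097 in WT.

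The mean level of Lrmda was 6.08-fold lower in Id1KO than in WT, a fitted log2 difference of -2.59 ± 0.19 (SE). It was 5.25-fold lower in dKO than in Tet2KO, at -2.38 ± 0.20. These values placed the gene 12th and 13th from the lowest of the 14346 genes. Among all genes, edgeR's quasi-likelihood test called 15% in Id1KO against WT and 26.4% in dKO against Tet2KO at a Benjamini-Hochberg adjusted p under 0.05. The median log2 difference over all genes was -0.01 and 0.00 in the same order.

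Within the span of Lrmda, Gm47601 is annotated as an intronic transcript on the same strand and was too low to be tested. Its counts over the 3 libraries summed to 15 for WT, 21 for Tet2KO, 2 for Id1KO and 1 for dKO. It shares 0 exonic bases with Lrmda. Counts of both Lrmda and Gm47601 were low in the libraries with the Id1 label. In total RNA, reads of Gm47601 cannot be told from unspliced Lrmda, so they are not a separate measurement.

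**Figure D1:**
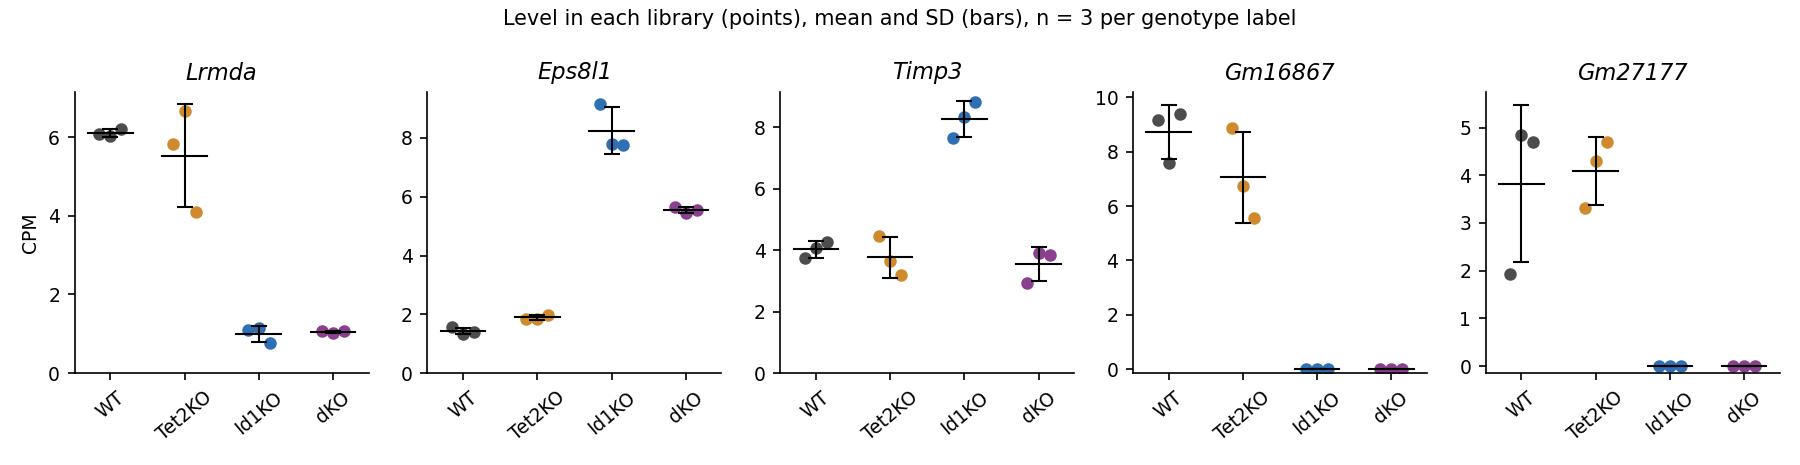
Level of each gene in CPM (linear axis) by genotype label; points are libraries, the long line is the mean and the bars are the SD of 3 libraries. Lrmda, Gm16867 and Gm27177 are low in Id1KO and dKO, with Gm16867 and Gm27177 at 0, Eps8l1 is high in both, and Timp3 is high only in Id1KO, at 8.25 ± 0.589 CPM.

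Eps8l1 (ENSMUSG00000006154.13) spans chr7:4460674-4480487 on the plus strand, with 22 merged exons and 6036 exonic bases. WT libraries had 1.56, 1.34 and 1.4 CPM, from 26 to 30 counts. Tet2KO libraries had 1.84, 1.85 and 1.99 CPM, from 30 to 37 counts. Id1KO libraries had 9.17, 7.81 and 7.76 CPM, and dKO libraries 5.64, 5.45 and 5.55 CPM. The 4 labels did not overlap in CPM for this gene, and the order from low to high was WT, Tet2KO, dKO and Id1KO. The share of all genes whose libraries lie apart, over the 4 labels or in a single contrast, was not counted. Lack of overlap, here and for the other genes, is therefore only a description of the libraries. The mean was 5.75-fold higher in Id1KO than in WT (log2 2.52 ± 0.13, SE) and 2.93-fold higher in dKO than in Tet2KO (log2 1.54 ± 0.14), which placed the gene 5th and 31st from the highest. An antisense gene, Gm15494, shares 59 exonic bases with Eps8l1 on the other strand and had 0 counts in all 12 libraries.

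Timp3 (ENSMUSG00000020044.13) spans chr10:86300372-86349506 on the plus strand, with 8 merged exons and 8144 exonic bases. WT libraries had 3.73, 4.07 and 4.27 CPM and Tet2KO libraries 4.47, 3.63 and 3.18 CPM. Id1KO libraries had 7.63, 8.33 and 8.8 CPM, while dKO libraries had 2.92, 3.89 and 3.84 CPM. The Id1KO libraries lay above all the other 9, which overlapped one another. The mean was 2.05-fold higher in Id1KO than in WT (log2 1.04 ± 0.13, SE), the 57th highest value. In dKO against Tet2KO the means were 3.55 ± 0.549 and 3.76 ± 0.657 CPM (log2 -0.07 ± 0.15), which ranked 9390th. Leaving out 1 library at a time moved that last value between -0.19 and 0.07.

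Timp3 lies inside the span of Syn3, a synapsin gene on the opposite strand, with 1733 exonic bases in common. Syn3 had 35 counts summed over the 3 WT libraries, 55 in Tet2KO, 35 in Id1KO and 42 in dKO. These are fewer than the Timp3 counts of 1 WT library, 72 to 79. The strand setting of the counting is not given in the sources used here.

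Per kilobase of exon, Lrmda was the most abundant of the 5 genes in WT at 2.25 CPM per kb, followed by Gm16867 at 1.12, Gm27177 at 0.553, Timp3 at 0.494 and Eps8l1 at 0.238. In the Id1KO libraries that order was Eps8l1 at 1.37, Timp3 at 1.01 and Lrmda at 0.37 CPM per kb, with both gene models at 0. All 5 genes were of low abundance.

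Gm16867 (ENSMUSG00000093954.8, protein coding) spans chr14:69363504-69503362 and Gm27177 (ENSMUSG00000098975.7, antisense) chr14:69582164-69683286, both on the minus strand. Gm16867 had 9.18, 7.58 and 9.4 CPM in the WT libraries and 8.88, 6.73 and 5.55 in the Tet2KO libraries. Gm27177 had 1.92, 4.85 and 4.7 CPM in WT and 3.31, 4.29 and 4.69 in Tet2KO. Every Id1KO and dKO library had 0 counts for both. With a floor of 3 counts per library, Gm16867 was at least 53.8-fold lower in Id1KO than in WT and at least 38.7-fold lower in dKO than in Tet2KO. For Gm27177 the bounds were at least 23.6-fold and at least 22.5-fold lower. They were the 2 lowest values among the 14346 genes in both contrasts.

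The share of the summed counts that fell to Gm16867 was 82.8, 61.1 and 66.7% in WT and 73, 61 and 54.3% in Tet2KO. The ranges of both labels overlapped. The sum was 12.5 ± 1.51 CPM in WT and 11.2 ± 0.984 in Tet2KO (SD, n = 3), and against these values the 0 counts bound the decrease at 77.4-fold or more in Id1KO and 61.2-fold or more in dKO.

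Both copies of this stretch lie about 218250 bases apart and carry further gene pairs. Gm20236 with Gm37094, Gm31748 with Gm37847 and Gm38378 with Gm37513 are pairs of identical transcripts, with 0 mismatches over 4540, 1497 and 2268 bases, and their counts were equal in 12 of 12 libraries. Entpd4 and Entpd4b encode a Golgi and lysosomal nucleotide phosphatase, and their longest transcripts are 3589 bases each. They run on the plus strand opposite to Gm16867 and Gm27177, with 2110 and 1700 exonic bases in common. Each pair is given as a sum, since reads cannot be told apart between copies.

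All 4 further pairs were lower with the Id1 label. Entpd4 with Entpd4b summed to 52.9 ± 1.68 CPM for WT, 52.6 ± 1.77 for Tet2KO, 40.2 ± 1.03 for Id1KO and 39.4 ± 2.71 for dKO (SD, n = 3). This is 76.1% of WT in Id1KO (log2 -0.39 ± 0.05, edgeR adjusted p = 1.31e-05) and 75% of Tet2KO in dKO (log2 -0.42 ± 0.05, adjusted p = 4.78e-06). Gm20236 with Gm37094 stood at 59.5% and 47.5% (edgeR adjusted p = 0.00147 and 8.67e-06). Gm31748 with Gm37847, with 1.44 CPM in WT, stood at 46.5% and 50.9% (edgeR adjusted p = 0.0193 and 0.033). Gm38378 with Gm37513 had 1.19 CPM in WT and 1.55 in Tet2KO, and 0 counts in every Id1KO and dKO library, a decrease of at least 7.33-fold and at least 8.52-fold. These sums were fitted in place of the single genes, a choice added after the data were seen.

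Slc25a37, which shares the 82-base exon and reaches over Gm20236 into the first copy, was not lower in either contrast. It had 74.3, 80.8, 83.2 and 80.9 CPM in WT, Tet2KO, Id1KO and dKO (log2 0.16 in Id1KO against WT, edgeR adjusted p = 0.00535; 0.00 in dKO against Tet2KO, adjusted p = 0.99). R3hcc1, the nearest tested gene beyond the second copy, had 23, 21.5, 22.6 and 20.7 CPM in the same order (log2 -0.02 and -0.06, edgeR adjusted p = 0.86 and 0.615). Chmp7, a membrane-remodelling subunit, rose by log2 0.23 in Id1KO against WT (edgeR adjusted p = 0.000908) and was at 0.01 in dKO against Tet2KO (adjusted p = 0.886).

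**Figure D2:**
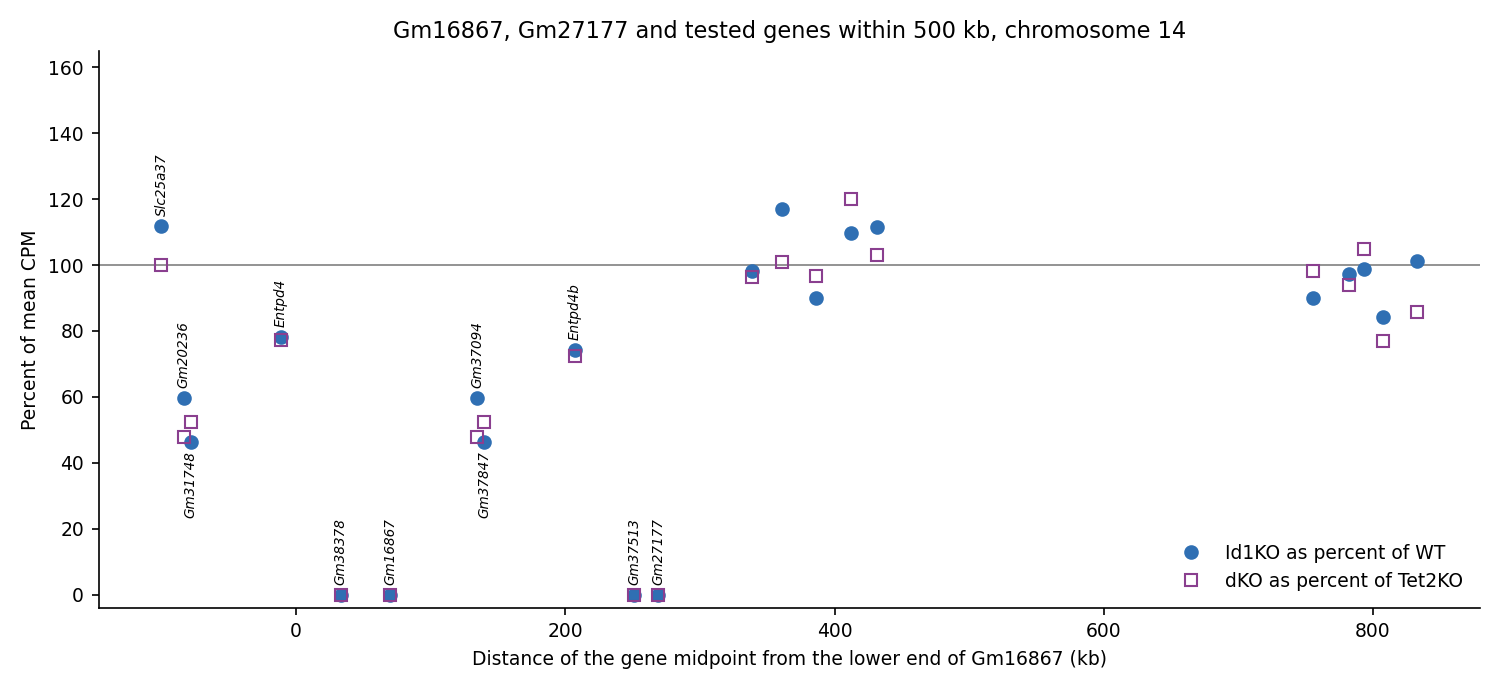
Mean CPM in Id1KO as a percent of WT (filled circles) and in dKO as a percent of Tet2KO (open squares) for tested genes around Gm16867 and Gm27177, by distance in kb along chromosome 14. The paired genes of both copies lie below the line at 100%, with Gm16867, Gm27177, Gm38378 and Gm37513 at 0, while Slc25a37, which reaches into the first copy, is at or above it.

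Within 500 kb of any of the 5 genes, 179 other genes are annotated and 61 were tested. Called in both Id1 contrasts with one sign were 8 of the 61 (13.1%), all lower, against 5.3% of all 14346 genes, of which 2.04% were higher and 3.26% lower. Of the 8, 6 are copies in the duplicated stretch: Entpd4, Entpd4b, Gm20236, Gm37094, Gm38378 and Gm37513. As 3 pairs of shared sequence they are not 6 separate measurements. Gm38378 and Gm37513 had 0 counts in every Id1KO and dKO library and passed the filter only through WT and Tet2KO. The share of 13.1% counts both copies of each pair, so set against 5.3% it is not a result about the neighbours. The other two were Lair1, an inhibitory collagen receptor of leukocytes, and Bpifc.

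Around Lrmda, Eps8l1 and Timp3 2 of the tested neighbours were called in both contrasts with one sign. Of 6 tested neighbours of Lrmda, Zfp503 was the closest, with log2 1.27 in Id1KO against WT (edgeR adjusted p = 0.0673) and 0.70 in dKO against Tet2KO (adjusted p = 0.184), both above 0 where Lrmda was below it. Of 24 tested neighbours of Eps8l1, Rdh13 on one side had log2 0.24 (edgeR adjusted p = 0.0033) and 0.10 (adjusted p = 0.199). Ppp1r12c, a myosin phosphatase subunit 1033 bases past the other end, had 0.17 (edgeR adjusted p = 0.0126) and 0.04 (adjusted p = 0.537). Lair1 had -0.14 (edgeR adjusted p = 0.0343) and -0.25 (adjusted p = 0.000283), opposite in sign to Eps8l1.

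Of 12 tested neighbours of Timp3, Bpifc had log2 -0.64 in Id1KO against WT (edgeR adjusted p = 0.0233) and -0.51 in dKO against Tet2KO (adjusted p = 0.0482). Syn3, which overlaps Timp3, had 0.04 (edgeR adjusted p = 0.959) and -0.32 (adjusted p = 0.499). Fbxo7 on one side and 1810014B01Rik on the other had -0.06 and 0.04 in Id1KO against WT (edgeR adjusted p = 0.481 and 0.807). Neither of the 2 closest genes outside Timp3 was called.

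**Figure D3:**
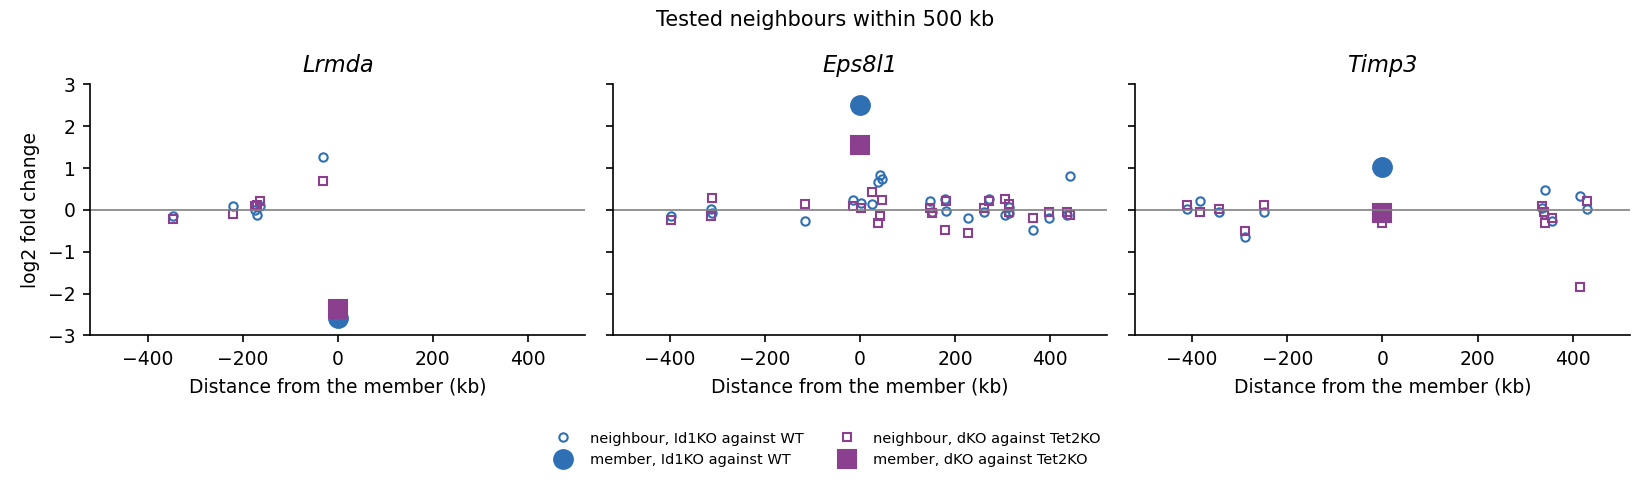
Log2 fold changes of Lrmda, Eps8l1 and Timp3 (large filled symbols at distance 0) and of their tested neighbours within 500 kb (small open symbols), by distance in kb, for Id1KO against WT (circles) and dKO against Tet2KO (squares). The members Lrmda at -2.59 and Eps8l1 at 2.52 lie outside the spread of their neighbours, and Timp3 at 1.04 lies above those around it in Id1KO against WT.

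The Tet2 label was then compared at each Id1 label. The groups of these contrasts are the ones whose levels chose the genes, so the values of the 5 genes are a description without a test. In Tet2KO against WT, where edgeR called 32.8% of all genes, Lrmda had log2 -0.15 ± 0.14 (SE), Timp3 -0.10 ± 0.15, and Eps8l1 0.40 ± 0.17. The 3 Tet2KO libraries of Eps8l1 lay above its 3 WT libraries, while the groups of Lrmda and Timp3 overlapped. Gm16867 had -0.31 ± 0.15 and Gm27177 0.11 ± 0.26, and their sum had -0.17 ± 0.11. Without the first WT library the value of Gm27177 was -0.21, and without the first Tet2KO library that of Gm16867 was -0.51.

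In dKO against Id1KO, Eps8l1 was 1.49-fold lower in dKO, a log2 difference of -0.57 ± 0.11 (SE), and its libraries did not overlap. Timp3 was 2.33-fold lower, at -1.21 ± 0.13, also without overlap. In this contrast edgeR called 19.3% of all genes, and 8.7% were called lower. Lrmda had 0.06 ± 0.27, with 14 to 22 counts per library in both groups, and its groups overlapped.

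One further contrast, the Tet2 difference averaged over both Id1 labels, was added after the data were seen. It takes both groups of each Id1 contrast with one sign and equal weight, so its estimate is uncorrelated with both when libraries vary alike. It still rests on the libraries whose levels chose the genes, so its values for them are a description without a test. Averaged over both Id1 labels, the Tet2 difference of Timp3 was log2 -0.66 ± 0.10 (SE), where edgeR called 34.8% of all genes. For Eps8l1 it was -0.08 ± 0.10 and for Lrmda -0.04 ± 0.16. The average for Timp3 combines -0.10 in Tet2KO against WT, where the libraries overlapped, and -1.21 in dKO against Id1KO. It is therefore not a difference seen at both Id1 labels. The average for Eps8l1 combines a positive difference in the libraries without the Id1 label and a negative one in those with it. The difference between the Id1 contrasts (dKO against Tet2KO minus Id1KO against WT) was 0.21 for Lrmda, -0.97 for Eps8l1 and -1.11 for Timp3 on the log2 scale. It is built from the contrasts that chose the genes and was not tested.

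**Figure D4:**
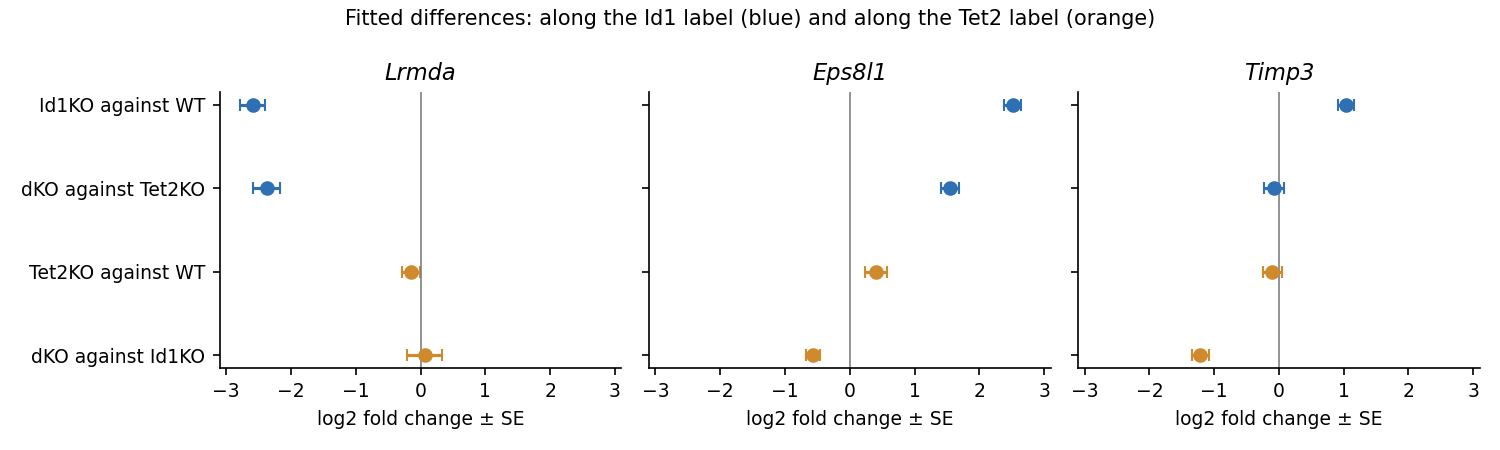
Fitted log2 fold changes with their standard errors for Lrmda, Eps8l1 and Timp3, along the Id1 label (blue) and along the Tet2 label (orange). For Timp3 the values away from 0 are Id1KO against WT at 1.04 and dKO against Id1KO at -1.21; for Lrmda and Eps8l1 both blue values lie away from 0 on one side.

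The only TIMP gene besides Timp3 with enough counts for a test was Timp2, with 5.48, 6.28, 5.73 and 4.72 CPM in WT, Tet2KO, Id1KO and dKO. It was at log2 0.07 in Id1KO against WT (edgeR adjusted p = 0.758) and fell by 0.41 in dKO against Tet2KO (adjusted p = 0.017). Timp1 had at most 4 counts in a library and Timp4 had 0. Of 24 listed metalloproteinases and regulators 17 were tested. In Id1KO against WT 1 rose and 1 fell, with a list median of -0.03, and in dKO against Tet2KO 1 rose and 3 fell, with a median of -0.06. The medians over all genes were -0.01 and 0.00, and the list's shares were near those of all genes.

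Adam10 and Adam17, the sheddases that were most abundant on the list, had 150 and 106 CPM in WT, and log2 -0.01 and -0.01 in Id1KO against WT (edgeR adjusted p = 0.943 and 0.852). Of 14 listed surface proteins that these sheddases cut, 12 were tested. In Id1KO against WT 1 rose and 4 fell, and in dKO against Tet2KO 8 fell, with medians of -0.12 and -0.18. Of all genes, 7.77% fell in the first contrast and 13.4% in the second. In Tet2KO against WT 8 of the 12 rose and 2 fell, with a median of 0.29. Lower in both Id1 contrasts were, among others, Tnfrsf1b and Csf1r, by log2 -0.12 and -0.15 in Id1KO against WT (edgeR adjusted p = 0.0313 and 0.00167). In dKO against Tet2KO they were at -0.22 and -0.09 (edgeR adjusted p = 0.000183 and 0.0232). They encode a TNF receptor and the receptor for macrophage colony-stimulating factor. Their transcripts say nothing of shedding, which acts on the proteins.

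In the Eps8 family, Eps8 itself had log2 0.31 in Id1KO against WT (edgeR adjusted p = 0.0852) and fell by 0.35 in dKO against Tet2KO (adjusted p = 0.0445). Eps8l2 and Eps8l3 had at most 5 and 3 counts in a library. Of 16 listed partners in Rac and actin control 14 were tested. In Id1KO against WT 2 rose and 1 fell, and in dKO against Tet2KO 1 rose and 5 fell, with medians of -0.06 and -0.03. Of all genes, 7.26% rose and 7.77% fell in the first contrast, and 13.1% rose and 13.4% fell in the second. In Tet2KO against WT 8 of the 14 rose and 1 fell, with a median of 0.14. Rac2, the blood-cell Rac GTPase, was lower in both Id1 contrasts, by log2 -0.10 and -0.20 (edgeR adjusted p = 0.0251 and 3.44e-05). Nckap1l, the most abundant partner at 262 CPM in WT, had -0.07 (edgeR adjusted p = 0.105) and -0.12 (adjusted p = 0.00254).

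Lrmda was set beside pigment cell genes. Tyr, Tyrp1, Oca2, Sox10 and Gpr143, which mark melanocytes, had 0 counts in all 12 libraries. Of 16 listed genes 8 were tested, and 2 of them, Rab38 and Rab27a, were called in an Id1 contrast: both fell in dKO against Tet2KO, by 0.17 and 0.09 on the log2 scale (edgeR adjusted p = 0.0381 and 0.0358). Rab27a, which moves lysosome-related organelles in blood cells as well, was the most abundant at 175 CPM in WT. Of all genes, 13.4% fell in dKO against Tet2KO. The list medians were -0.11 in Id1KO against WT and -0.03 in dKO against Tet2KO.

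The summed level of megakaryocyte markers, like Timp3, was highest in Id1KO. This was not particular to them. Erythroid markers, at 1560 to 1600 CPM, and mast cell and basophil markers, at 238 to 246, were also highest there. In WT these 2 lists summed to 1370 to 1430 and 227 to 235 CPM. The 6 listed markers summed to 154 to 161 CPM for WT, 157 to 167 for Tet2KO, 220 to 232 for Id1KO and 157 to 173 for dKO, so that only the Id1KO libraries stood apart. Pf4, a platelet chemokine, had means of 29.3, 26.2, 51.5 and 32.2 CPM in WT, Tet2KO, Id1KO and dKO. Itga2b, the platelet integrin, had 83.9, 93.6, 111 and 85.1, and Vwf 37.2, 37.4, 56.6 and 40.5. These 3 of the 6 markers rose in Id1KO against WT, where 7.26% of all genes rose. In dKO against Id1KO 5 of 6 fell, where 19.3% of all genes were called and 8.7% were called lower. In dKO against Tet2KO, where the Timp3 libraries overlapped, Pf4 rose by log2 0.30 (edgeR adjusted p = 0.00138) and Itga2b fell by 0.14 (adjusted p = 0.0407). No listed megakaryocyte marker was at 0. Their part in the Timp3 result was not tested. Stromal cells are known to make Timp3, and their markers summed to 28.8 to 31.7 CPM for WT, 43.6 to 46.6 for Tet2KO, 34.6 to 35 for Id1KO and 33.3 to 33.9 for dKO, almost all from Pdgfrb. Pdgfrb rose by log2 0.20 in Id1KO against WT (edgeR adjusted p = 0.00846) and fell by 0.45 in dKO against Tet2KO (adjusted p = 1.4e-06). Their part was not tested either.

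**Figure D5:**
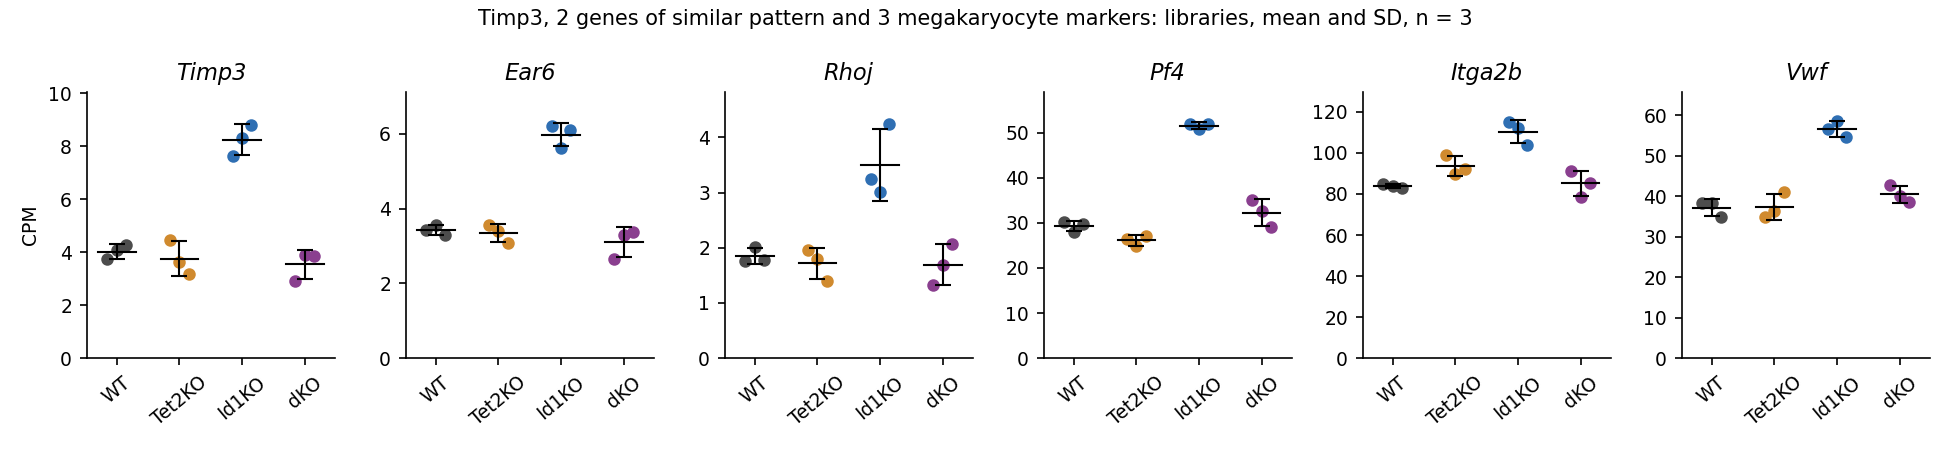
CPM (linear axes from 0, one scale per panel) of Timp3, of Ear6 and Rhoj, and of the megakaryocyte markers Pf4, Itga2b and Vwf, by genotype label; points are libraries, lines the mean and bars the SD of 3. In each panel the 3 Id1KO libraries are the highest, as for Pf4 at a mean of 51.5 CPM against 29.3 in WT. The markers shown are the 3 of 6 listed that edgeR called higher in Id1KO against WT.

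For each gene, the 3 tested genes with the most similar pattern were found by Pearson's r of log2 CPM over the 12 libraries of 4 labels, among 13170 genes. Because the libraries fall into groups, these values mostly describe the group means, and the 3 nearest genes by Spearman's rho were other genes for each of the 5. Lrmda was closest to Gm16867 (r = 0.990), Gm27177 (0.975) and Entpd4b (0.973), which lie elsewhere on the same chromosome. Eps8l1 was closest to Banp (0.973), Fubp1 (0.971) and Anln (0.970). Their shifts were smaller, with log2 0.82, 0.26 and 0.28 in Id1KO against WT beside 2.52 for Eps8l1.

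Timp3 was closest to Ear6 (r = 0.979), a ribonuclease of the eosinophil-associated family, Rhoj (0.963), a Cdc42-like GTPase of endothelium, and Fbxo3 (0.947). Ear6 had log2 0.80 in Id1KO against WT and -0.94 in dKO against Id1KO, and Rhoj 0.91 and -1.04, beside 1.04 and -1.21 for Timp3. Gm16867 was closest to Lrmda, Gm27177 (0.986) and Scd2 (0.981), and Gm27177 to Hexa (0.987), Entpd4b (0.987) and Gm16867. Among the 5 genes themselves, Lrmda and Eps8l1 ran opposite to each other (r = -0.97 over 12 libraries). Timp3 stood apart, at 0.59 with Eps8l1 and -0.46 with Lrmda. The genes were chosen for shifts along the Id1 label, so correlations between them follow largely from the choice.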

How the data were processed

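The members and the gene lists were chosen with earlier results of these data known. Per the labels' protocols, a Qiagen micro kit gave the RNA for stranded libraries depleted of ribosomal RNA. The authors made and deposited a table of estimated counts per gene, for which the submitters' processing notes name STAR, RSEM and mm10 without version or role. The estimated counts as deposited were not normalized, and 4.92 to 5.26% of values per library were not whole. Tool settings, the annotation and the strand setting are not given in the sources used here. All 55450 identifiers matched GENCODE M21, from which names and GRCm38 positions were taken.

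After rounding, 14346 genes passed filterByExpr at a minimum count of 10. TMM factors scaled the libraries, also for CPM. One edgeR quasi-likelihood model held all 12 libraries with a mean for each label, and its two-sided F-tests were corrected over the tested genes (Benjamini-Hochberg, threshold 0.05). The common biological coefficient of variation was 0.0305. Within labels, the 12 pairs of libraries had median ratios of 1.18 to 2.1 to sampling noise and were kept apart. A count of 3 was the floor, for counting error only. On simulated data, 200 genes with a mean over 50 counts were changed 2-fold between Tet2KO and WT. The test called 200 of them, with 18 false calls, over 14163 genes. Every gene was given the same spread, so the simulation does not show how the test does at lower counts or with unequal spread. RefSeq promoters (GRCm38.p6) and GENCODE exons gave the sequences.

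The genes named besides the 5 were Id1 and Tet2, the closest tested neighbours within 500 kb and any called in both Id1 contrasts with one sign, the 3 of most similar pattern (mean of at least 1 CPM in a label, prior count 2), and list genes called in both Id1 contrasts with one sign or among the 2 most abundant, of which 1 gene is not reported here. Genes at 0 or too low to test, Chmp7, Eps8, Rab38, single marker genes and the locus pairs were named after their values were seen. Marker lists were sorted progenitors and stromal, endothelial, epithelial, erythroid, megakaryocyte, neutrophil, monocyte and macrophage, mast cell and basophil, B, and T and NK cells. Alternatives were RLE and upper-quartile scaling, DESeq2, no filter, 10 counts in every library of a label, only the libraries compared, a replicate block, a threshold of 0.01 and leaving out each library. The software was blast 2.17.0, edgeR 4.0.16, matplotlib 3.10.9, DESeq2 1.42.0, pandas 2.3.3, limma 3.58.1, Python 3.11.15 and R 4.3.3.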

Additional observations from a re-analysis of the deposited data

Results flagged for a closer look

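By mean CPM, Eps8l1 differed in opposite directions along the Tet2 label in the libraries with and without the Id1 label. Its 3 Tet2KO libraries lay above its 3 WT libraries, with means of 1.89 ± 0.0868 and 1.43 ± 0.11 CPM (SD, n = 3), while its 3 dKO libraries lay below its 3 Id1KO libraries, with 5.55 ± 0.097 and 8.24 ± 0.802 CPM. The first of these differences rests on few counts, 26 to 30 per library in WT and 30 to 37 in Tet2KO, which met at 30. It was log2 0.40 ± 0.17 (SE), beside -0.57 ± 0.11 for dKO against Id1KO. The log2 difference between these 2 differences was -0.97. The difference was not tested, because it is built from the contrasts that chose the gene.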

How the results depend on the processing

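The values of Lrmda, Eps8l1 and Timp3 kept their direction under each alternative other than leaving out a library. The Tet2 difference of Timp3 averaged over the Id1 labels kept its direction under every alternative run for it. Leaving out 1 library at a time gave log2 -1.28 to -1.09 for Timp3 and -0.61 to -0.49 for Eps8l1 in dKO against Id1KO, and -0.73 to -0.60 for Timp3 averaged over the Id1 labels. In Tet2KO against WT, values near 0 changed sign with the library left out: Lrmda ran from -0.30 to 0.04, Timp3 from -0.24 to 0.01 and Gm27177 from -0.21 (without the first WT library) to 0.32, and Gm27177 summed with Gm16867 was at -0.17. Lrmda in dKO against Id1KO ran from -0.09 to 0.17. Gm16867 in Tet2KO against WT was at log2 -0.32 with no filter and at -0.17 summed with Gm27177. When libraries were left out it ran from -0.51 (without the first Tet2KO library) to -0.16. These values of Gm16867 are a description without a test, and the cause of their range was not tested.

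The number of genes called at an adjusted p under 0.05 was 4699 in Tet2KO against WT, 2762 in dKO against Id1KO, 2156 in Id1KO against WT and 3793 in dKO against Tet2KO. At 0.01 these fell to 3122, 1599, 1085 and 2285, by the stricter threshold itself. Leaving out 1 library gave 3808 to 4964, 2109 to 2837, 1512 to 2386 and 2951 to 3847. In 18 pairs of libraries with the same suffix number, deviations from the label means correlated at -0.10 to 0.11, over 0.1 in 1 pair. Sampling noise is part of these deviations, with median ratios to it of 1.18 to 2.1 within labels. The correlations therefore cannot settle whether such libraries were prepared together. With a replicate block the counts were 4523, 2576, 1952 and 3592, and Timp3 and Eps8l1 in dKO against Id1KO were at log2 -1.21 and -0.57. A window of 100 kb gave 6 of 21 tested neighbours called in both Id1 contrasts with one sign, all lower. These 6 were the copies in the duplicated stretch. A window of 1000 kb gave 8 lower and 1 higher (Slc39a14) of 102, with the 6 copies among those lower. Gm16867 and Gm27177 were not refitted in the Id1 contrasts, where they had 0 counts. Depth limits Lrmda, at 14 to 22 counts per library with the Id1 label, and sequence shared between copies limits the split of Gm16867 and Gm27177.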
